A study of Mus musculus with 2 samples.

Results

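Of the 1424 YY1 peak entries listed for mouse adipocytes, 223 had a summit more than 1 kb from both ends of every protein-coding and lncRNA gene. These entries, called gene-distant below, are the subject here: 26 of the 165 entries of the room temperature list (15.8%, exact 95% Clopper-Pearson interval 10.6 to 22.2) and 197 of the 1259 entries of the cold list (15.6%, 13.7 to 17.8). The rule used only the summit position and the gene ends that RefSeq lists for GRCm38.p6, which is the mm10 assembly. Inside a gene lay 176 of the 223 summits, 19 at room temperature and 157 after cold, and outside all genes lay 47, 7 and 40. A neighbouring entry in 1 interval can share its DNA with another, and the 197 cold entries stood for 190 distinct intervals.

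Both libraries came from mature adipocytes of the inguinal (subcutaneous) fat pad. The donors were wild-type C57 males aged 8 to 10 weeks, kept either in cold stress for 7 days or at what the labels call room temperature. The cells were floated off after collagenase digestion, and 100000 nuclei were used, per the labels' protocols. The sources used here do not give how many animals were pooled or the housing temperatures. With 1 library for each condition there is no replicate check on any difference between them, and no p-value was computed. The labels name ChIP-seq, but the protocol text is that of CUT&Tag, where the antibody carries a transposase that cuts into DNA beside the bound protein.

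YY1 is a zinc finger protein present in most cell types that activates some genes and represses others. Its best known sites lie at promoters, close to or just inside the transcription start, and carry ATGGC within longer letters such as AAGATGGCG. It also binds some enhancers, where it has been linked to loops between enhancers and promoters. A gene can have several transcription starts, and a start within the body of a gene is distant from both of its outer ends.

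The most frequent place of the gene-distant summits was inside a gene and within 1 kb of an annotated start, called an inner start below. It need not be an alternative start. Of the 88 host genes of such summits after cold, 32 had more than 1 start in the table used. The sequences of 9 of these starts are shown first because they carry the letters AAGATGG, which are part of the YY1 motif, beside the start. In the first set of 6, the capitals mark AAGATGG on the strand of the gene, and in all 6 they fall after the start. Each line runs from 60 bases before the annotated start through the first 30 bases from it, 5′ to 3′ on the gene's strand, from RefSeq windows of GRCm38.p6.

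Aars2, chr17:45506781-45506870, + strand: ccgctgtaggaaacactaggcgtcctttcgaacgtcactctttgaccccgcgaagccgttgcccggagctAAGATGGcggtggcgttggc
Rcc1l, chr5:134176738-134176827, - strand: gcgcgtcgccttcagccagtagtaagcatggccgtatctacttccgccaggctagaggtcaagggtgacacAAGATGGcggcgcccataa
Rnf114, chr2:167503383-167503472, + strand: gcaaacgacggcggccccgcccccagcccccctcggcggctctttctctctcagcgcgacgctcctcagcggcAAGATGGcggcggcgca
Spg11, chr2:122118357-122118446, - strand: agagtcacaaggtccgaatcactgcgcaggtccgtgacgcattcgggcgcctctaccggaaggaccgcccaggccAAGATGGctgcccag
Snx13, chr12:35047129-35047218, + strand: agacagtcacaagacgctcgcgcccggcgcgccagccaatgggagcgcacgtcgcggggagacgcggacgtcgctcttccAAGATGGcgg
Rexo1, chr10:80561531-80561620, - strand: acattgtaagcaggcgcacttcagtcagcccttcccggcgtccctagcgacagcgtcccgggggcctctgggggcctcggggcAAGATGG

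In the second set the capitals mark CCATCTT, which is AAGATGG read on the opposite strand, and here it lies before the start.

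Hnrnpul1, chr7:25754730-25754819, - strand: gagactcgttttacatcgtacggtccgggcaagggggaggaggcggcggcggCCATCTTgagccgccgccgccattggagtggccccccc
Fuz, chr7:44896019-44896108, + strand: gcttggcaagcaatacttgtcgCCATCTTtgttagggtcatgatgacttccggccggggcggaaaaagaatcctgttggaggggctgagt
Mrpl36, chr13:73330949-73331038, + strand: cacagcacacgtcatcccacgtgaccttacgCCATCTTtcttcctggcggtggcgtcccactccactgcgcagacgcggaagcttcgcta

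For contrast, 2 of the strongest gene-distant sites have no AAGATGG in their 300 bp window, although each window has ATGGC outside the stretch shown, in 3 copies at Prpsap1 and 1 at Dedd.

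Prpsap1, chr11:116490317-116490406, - strand: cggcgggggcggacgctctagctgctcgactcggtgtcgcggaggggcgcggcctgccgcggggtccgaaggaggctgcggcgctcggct
Dedd, chr1:171329085-171329174, + strand: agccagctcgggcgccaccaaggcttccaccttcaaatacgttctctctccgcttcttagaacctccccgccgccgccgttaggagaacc

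These 11 starts belong to genes of varied roles. Aars2 encodes the mitochondrial alanyl-tRNA synthetase, Mrpl36 a protein of the mitochondrial ribosome and Rcc1l a factor of mitochondrial ribosome assembly. Hnrnpul1 encodes an RNA-binding protein, Rexo1 a relative of RNA exonucleases, Rnf114 a ubiquitin ligase, Snx13 a sorting nexin and Spg11 a protein of lysosome recycling. Fuz encodes a protein of cilium formation, Prpsap1 a protein that binds the enzyme making the nucleotide precursor PRPP, and Dedd a death effector domain protein.

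The fragments covering a summit, here called the pileup, were recovered from the deposited fold and p-value and are given with exact 95% Poisson intervals. These intervals, and the intervals of shares, cover counting error only, and fragments may include PCR copies. At Aars2 the summit lay 3372 bp from the nearest gene end and 46 bp after the start shown, with 14 fragments in the room temperature library (7.65 to 23.5) and 61 in the cold library (46.7 to 78.4). The Hnrnpul1 summit, 19 bp after the start, had 18 fragments (10.7 to 28.4) and 79 (62.5 to 98.5). At both genes the cold interval lay wholly above that of room temperature.

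The Rexo1 summit had 17 fragments in the room temperature library (9.9 to 27.2) and 40 in the cold one (28.6 to 54.5), 100 bp after the start, and the Fuz summit 10 (4.8 to 18.4) and 33 (22.7 to 46.3), 146 bp before it. The intervals of both libraries were apart here as well. Rcc1l with 52 fragments (38.8 to 68.2), Spg11 with 32 (21.9 to 45.2), Rnf114 with 28, Mrpl36 with 28 and Snx13 with 23 were listed after cold only. A missing entry is not a measured 0, since the room temperature list held no pileup below 6 fragments.

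Distances to annotated starts were measured for all members except those on chromosome 18, for which the start table held no window. After cold, 91 of 151 summits inside genes lay within 1 kb of a start (60.3%, 52.0 to 68.1), 73 of them within 500 bp and 55 within 200 bp. At room temperature 12 of 17 lay within 1 kb (70.6%, 44.0 to 89.7) and 10 within 200 bp. Of the bases inside genes and more than 1 kb from every gene end, 0.849% lie that close to a start. None of the summits outside genes did, 0 of 39 after cold (up to 9.03%) and 0 of 7 at room temperature (up to 41.0%), as the choice by gene ends nearly dictates. For entries at gene ends the share was 86.2% after cold (893 of 1036).

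The start table held no start of the host gene for 23 of the 60 cold members that lay away from starts. Among the 128 cold members whose host had one, 91 lay within 1 kb of a start (71.1%, 62.4 to 78.8). At room temperature the count was 12 of 15 (80.0%, 51.9 to 95.7).

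**Figure D1:**
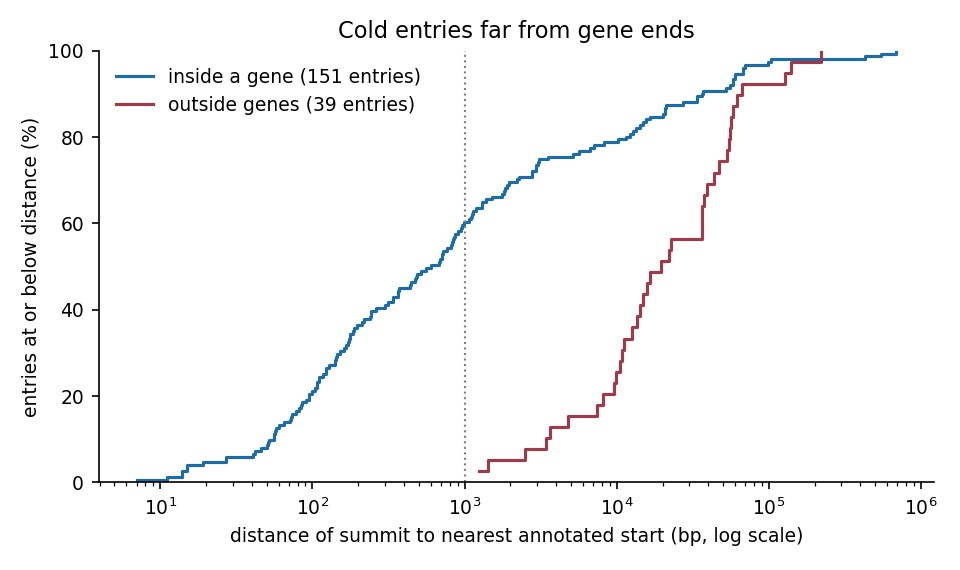
Cumulative share of gene-distant cold entries (y, percent) by the distance of the summit to the nearest annotated start (x, bp, log scale), for 151 entries inside genes and 39 outside. The curve for entries inside genes reaches 60.3% at the dotted line at 1 kb, where the curve for entries outside genes is still at 0.

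The start belonged to the host gene in 90 of the 91 cold cases. The exception was a summit in Strn3, 185 bp after a start of the overlapping gene Ap4s1. The start itself lay more than 1 kb from every gene end in 80 of the 91 cases, at a median of 2977 bp over these 80, and in 11 it lay more than 10 kb away. In the other 11 cases the start lay within 1 kb of a gene end and the summit just beyond, as at Yy1, where the cold summit lay 860 bp after a start. That site, in the gene of the profiled protein itself, had 38 fragments after cold (26.9 to 52.2) and no room temperature entry.

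Starts more than 10 kb from every gene end are described next, some of them picked after their values were seen. In Tnrc6b, a gene of microRNA-guided silencing, the cold summit lay 87375 bp from the nearest gene end and 78 bp after a start (32 fragments, 21.9 to 45.2). Its relative Tnrc6a had 22 fragments (13.8 to 33.3), 25787 bp from the nearest end and 140 bp after a start. Both genes were in the cold list only.

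In Adk, the adenosine kinase gene, 25 fragments lay 23335 bp from the nearest end and 243 bp before a start. Osbpl11, which encodes an oxysterol-binding protein relative, had 45 fragments (32.8 to 60.2) at 15267 bp from the nearest end and 41 bp before a start. The RNA helicase gene Dhx30 had 17 fragments at 16636 bp and 107 bp after a start, Ccdc174 26 at 21913 bp and 117 bp before a start, and Zfp445 21 at 16924 bp and 172 bp after a start. Zfp638 had 2 summits in 1 interval, with 13 and 10 fragments, 47497 bp and 47842 bp from the nearest end and 212 bp and 557 bp after the same start.

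Around the starts the cold summits lay a median of 71 bp downstream (quartiles −95 and 215), 60 of 91 on the downstream side. The choice of members favours this side in part. In 11 of the 91 cases the start lay within 1 kb of a gene end, where the rule can bar positions shortly upstream. Starts somewhat further from an end can lose part of that side too. How much of the lean comes from this was not tested. At room temperature the median was 21 bp downstream, with 8 of 12 downstream. Read along the gene, summits inside genes were mostly early in it. Of the 128 cold members whose host strand was known, 87 lay in the first 25% of the gene's length (68.0%) and 3 in the last 25%. The host genes were long, with a median of 38.1 kb over the cold members against 17.1 kb for all 21900 protein-coding genes, and a longer gene offers more positions far from its ends. Protein-coding genes hosted 151 of the 157 cold members and lncRNA genes hosted 6.

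**Figure D2:**
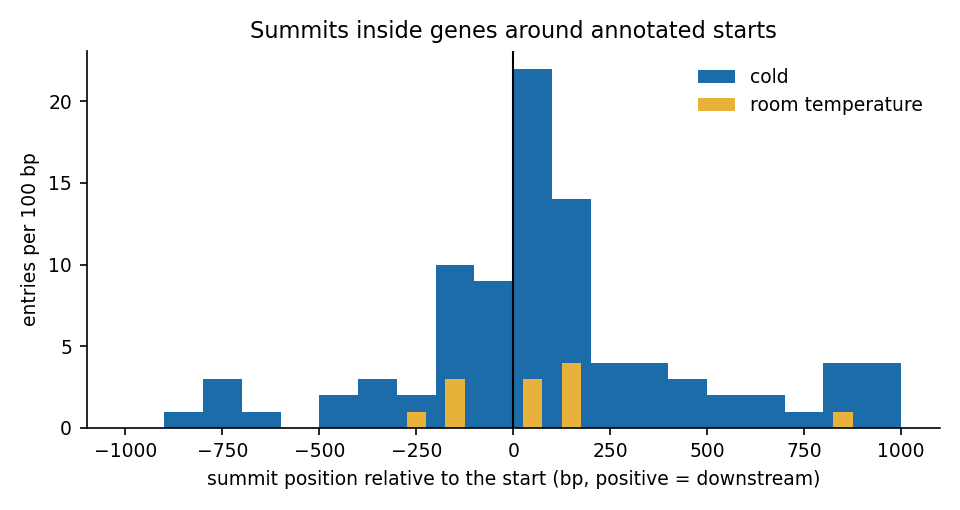
Number of gene-distant entries inside genes (y, entries per 100 bp) by the position of the summit relative to the nearest start (x, bp, positive downstream), for the 91 cold and 12 room temperature entries within 1 kb of a start. The cold entries peak in the first 100 bp downstream and have a median of 71 bp. For starts near a gene end the rule can bar part of the upstream side.

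The sequence at these starts was read in 300 bp windows, 250 before the start to 50 from it, on both strands. After cold, 31 windows held the summit of a member inside a gene. ATGGC was present in 30 of them (96.8%, 83.3 to 99.9), AAGATGG in 14 (45.2%, 27.3 to 64.0) and AAGATGGCG in 8 (25.8%, 11.9 to 44.6). Over all 32851 windows these letters were in 40.5%, 6.34% and 1.40%. AAGATGGCG contains both shorter motifs, so the 3 shares overlap. The 1 window with a summit and no ATGGC was that of the adaptor subunit gene Ap2b1, which carries AAGATGG on the opposite strand.

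Windows at gene ends that held a cold summit had these letters in 94.9%, 49.2% and 31.6% of 313 cases. The intervals of the members' shares include these values. Among all 88 windows whose start lay within 1 kb of a cold member, ATGGC was in 59 (67.0%, 56.2 to 76.7), AAGATGG in 22 (25%, 16.4 to 35.4) and AAGATGGCG in 14 (15.9%, 8.98 to 25.2). Where the summit lay beyond the window, in 58 windows, the shares were lower, at 51.7%, 13.8% and 10.3%.

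Of the genes with these windows, 32 had other annotated starts, which serve as a comparison within genes. In the 32 windows of these genes beside a member the letters were in 71.9% (53.3 to 86.3), 25% (11.5 to 43.4) and 15.6% (5.28 to 32.8). In the 46 windows at their other starts they were in 43.5% (28.9 to 58.9), 8.70% (2.42 to 20.8) and 2.17% (0.055 to 11.5), close to all windows. At room temperature the 12 windows beside members had them in 83.3%, 41.7% and 33.3%. Base composition also differed. The median G and C content was 61.8% in the 32 windows beside a member and 57.0% at the other starts of these genes. It was 60.2% in the 88 windows and 52.7% in all windows, and its part in the motif shares was not tested.

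Where a window held both the summit and ATGGC, the letters nearest to the summit were a median of 22.5 bp away (quartiles 6.5 and 48.5), within 50 bp in 23 of 30 windows. At gene ends the median was 21.5 bp. The 25 copies of AAGATGG in the 88 windows lay unevenly. Of these, 12 were after the start on the strand of the gene (48.0%, 27.8 to 68.7), like the first 6 sequences shown, against 19.7% of the 2187 copies in all windows and 47.1% of the 310 copies beside cold entries at gene ends.

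Motifs of other factors were counted in the same 88 windows. The SP and KLF letters CCGCCC were in 65.9% (55.0 to 75.7) against 35.7% of all windows, and the ETS letters CCGGAAG in 17.0% (9.87 to 26.6) against 8.86%. The AP-1 letters TGANTCA were in 4.55% (1.25 to 11.2) against 7.81%, and AGGTCA, a site element of PPAR and related receptors, in 19.3% (11.7 to 29.1) against 16.3%. The NRF1 letters GCGCATG were in 9.09% (4.01 to 17.1) against 3.91%. For SP and KLF, ETS and NRF1 the interval lay above the share of all windows. At cold gene end entries within 1 kb of a start these 3 motifs were in 66.1%, 21.3% and 10.1% of windows, all inside the members' intervals. At the other starts of the 32 genes they were in 54.3%, 13.0% and 6.52%, with the last 2 inside the members' intervals and the first just below, in an interval (39.0 to 69.1) that overlaps that of the members. The members' interval for AP-1 and for AGGTCA includes the share of all windows. It also does for 6 further motifs: CCANNAGNG (13.6% against 17.9%) and AGNGGGC (35.2% against 25.8%), which are parts of the CTCF site, CRE TGACGTCA (3.41% against 1.79%), ZNF143 ACTACAA (1.14% against 3.24%), the glucocorticoid receptor element AGAACA (11.4% against 19.0%) and C/EBP TTGCNNCAA (1.14% against 2.08%). A match is a description of the letters and not a measured site.

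**Figure D3:**
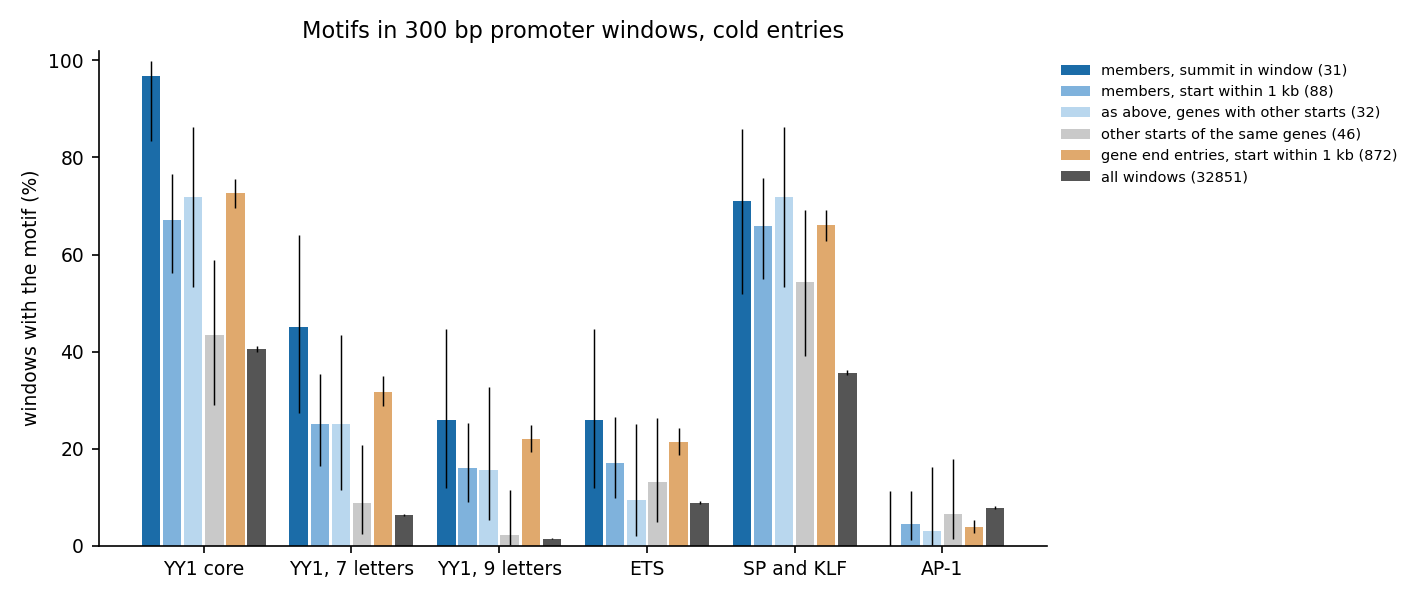
Share of 300 bp promoter windows with each motif (y, percent, bars from 0 with exact 95% Clopper-Pearson intervals) for cold entries, with the number of windows in the legend. The windows that held a member's summit had the YY1 core in 96.8%, against 40.5% of all windows. In the 32 genes with other starts the core was in 71.9% of windows beside a member and 43.5% of the others.

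The pileups of the members inside genes had the same cold median as those at gene ends. It was 21 fragments for both, with quartiles of 13 and 28 inside genes and of 15 and 29 at gene ends. Within the genes, members beside a start had a median of 23 fragments (16 and 30) and members away from starts 15.5 (11 and 23.25). Members outside genes had 13.5 (9 and 19.25). At room temperature the medians were 13 at gene ends, 10 inside genes and 7 outside, with quartiles of 10 and 14.5 inside and 6 and 14 outside. Of the 26 room temperature members, 6 had a q above 0.05, out of 9 such entries in that whole list, and none of the cold members had.

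**Figure D4:**
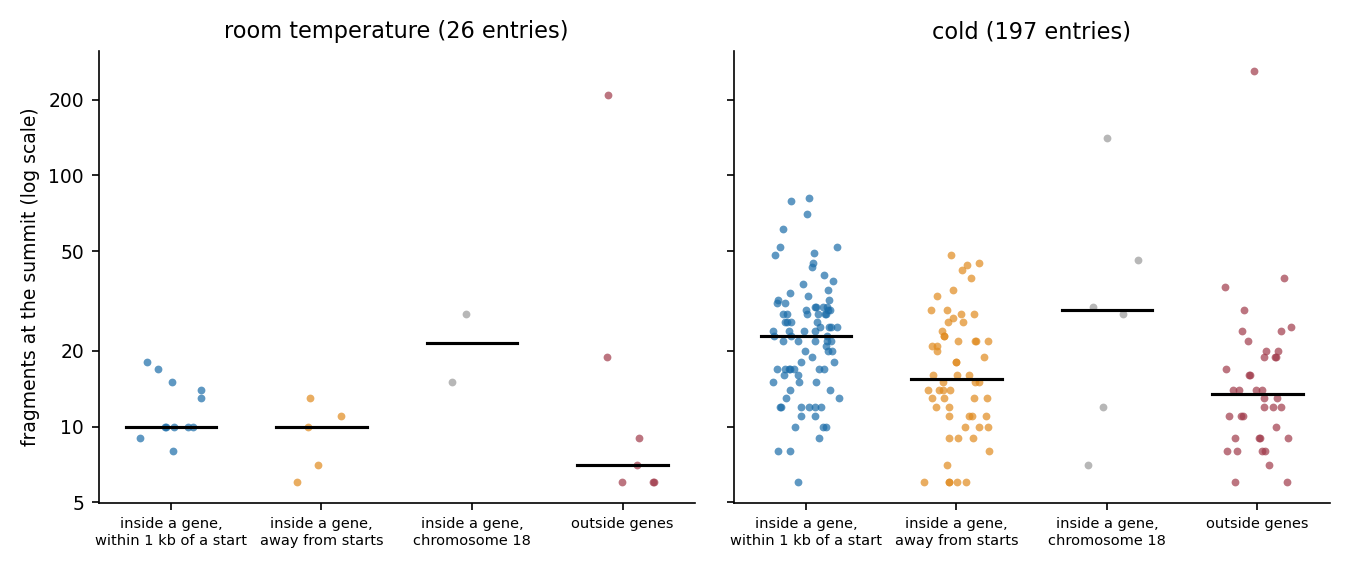
Fragments at the summit (y, log scale) of each gene-distant entry, by library and place, with a line at the median. The cold medians are 23 beside starts, 15.5 away from starts and 13.5 outside genes. The isolated highest point outside genes in each library, at 209 and 260 fragments, is 1 interval on a background above 100 fragments.

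A larger share of the members inside genes than of those outside was in both lists. Over the whole lists, 93.9% of room temperature entries and 13% of cold entries overlapped an entry of the other list by at least 1 bp. Inside genes 18 of 19 room temperature members did (94.7%, 74.0 to 99.9), while outside genes 2 of 7 did (28.6%, 3.67 to 71.0). After cold the counts were 18 of 157 inside (11.5%, 6.94 to 17.5) and 1 of 40 outside (2.50%, 0.063 to 13.2), against 145 of 1062 at gene ends (13.7%). For members inside genes these shares were near those of the whole lists. Members outside genes also had the lower pileups given above.

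At room temperature, under 15 fragments, 13 of 14 members inside genes (92.9%, 66.1 to 99.8) and 0 of 5 outside (up to 52.2%) were also in the cold list. The 5 outside had 6 to 9 fragments and those inside 6 to 14, so this bin does not match their strength. A q above 0.05 was found for 4 of these 5, against 2 of the members inside genes. After cold the share in both lists was larger at higher pileups. Of the cold members inside genes with under 15 fragments, 0 of 48 were also in the room temperature list, which allows up to 7.40%, of those with 15 to 29 fragments 4 of 75, and of those with 30 or more 14 of 34 (41.2%, 24.6 to 59.3). At gene ends the same bins gave 3 of 237, 37 of 562 and 105 of 263 (39.9%). Outside genes only 3 cold members reached 30 fragments.

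At room temperature 20 members overlapped a cold entry, each paired here with the cold summit nearest to its own. In the whole lists, 92.3% of the 155 shared entries had a cold pileup at least 2 times that of room temperature. Among the 20 members it was 18, with a median ratio of 3.31 (quartiles 2.72 and 4.67). Over all 155 shared entries the median ratio was 3.25 (2.55 and 4.17), so the members were near the whole lists. The ratio has no correction for depth. The lowest background of the cold list was 1.06 times that of the room temperature list, or 1.05 times after dividing each by the smallest listed width, which serves as a rough measure of relative depth. Absolute depths are unknown. Shared entries had to pass the listing threshold in both libraries. Lists of this kind therefore leave out sites with few fragments in either.

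The highest ratio was at Prpsap1, with 8 fragments in the room temperature library (3.45 to 15.8) and 81 in the cold one (64.3 to 101), 10.1-fold. Its room temperature entry was weak, with a −log10 q of 1.16, which is a q above 0.05. Nr3c1, the glucocorticoid receptor gene, had 28 (18.6 to 40.5) and 141 (119 to 166), 27616 bp from the nearest gene end after cold. It was the strongest member inside a gene in both libraries, and on chromosome 18 its distance to a start could not be read. Mettl3, which encodes the catalytic subunit of the enzyme that methylates adenosine in mRNA, had 10 (4.80 to 18.4) and 49 (36.3 to 64.8), with the cold summit 95 bp before an inner start. In each of these genes the cold value was well above the upper bound at room temperature.

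Dedd had 15 fragments in the room temperature library (8.40 to 24.7) and 70 in the cold one (54.6 to 88.4). Nfyc, a subunit gene of the CCAAT-binding factor NF-Y, had 13 (6.92 to 22.2) and 48 (35.4 to 63.6), 123 bp after an inner start. Epc1, a subunit gene of the NuA4 acetyltransferase complex, had 15 (8.40 to 24.7) and 46 (33.7 to 61.4), 25831 bp from the nearest end and 287 bp from the microRNA gene Mir1893. Their intervals did not overlap either.

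Away from the starts in the table, which holds none of Gm38469 and Hexim2, Gm38469 had 10 fragments and 48, the lncRNA gene Gm30149 had 6 and 28, and Zfp563 had 11 and 23, in the room temperature and the cold library in this order. Hexim2, which encodes an inhibitor of the transcription elongation kinase P-TEFb, had 13 and 33. Beside starts the remaining pairs were Zfx (10 and 30), Zc3h4 (10 and 30), the cyclin gene Ccnl2 (9 and 25) and Wdr20 (10 and 17). At Zfp563, Ccnl2 and Wdr20 the intervals of both libraries overlapped, which alone does not decide whether the counts differ. The cold interval of Zc3h4 was 1085 bp wide and held a second summit nearer to the gene's end.

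Outside genes there were 2 pairs. Beside Ptma, the prothymosin alpha gene, the room temperature summit lay 1057 bp and the cold summit 956 bp from the gene end, so only the former is a member (19 and 63 fragments). The other pair, 35.7 kb from Gm33780 on chromosome 2, had 209 fragments (182 to 239) on a background of 138 and 260 (229 to 294) on a background of 150. Its ratio of 1.24 was the lowest of the 20, and without it the median was 3.32. Mapping of repeats at this site was not tested. Over all 20 pairs the intervals of both libraries were apart at 16, and the peak interval was wider after cold at all 20. Over all 155 shared entries of the whole lists the counts were similar in share, at 122 and 153.

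**Figure D5:**
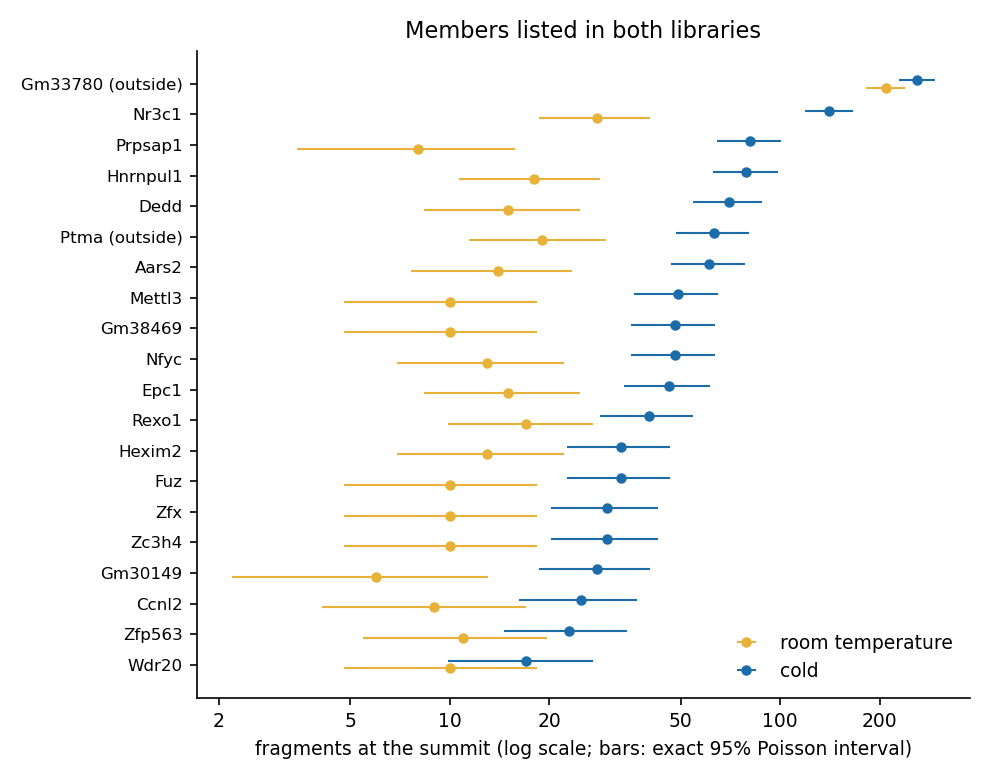
Fragments at the summit (x, log scale, bars are exact 95% Poisson intervals) of the 20 room temperature members that overlap a cold entry, with the paired cold value. The cold point lies to the right at all 20, by a median of 3.31-fold, and the bars overlap at 4. Over all 155 shared entries of the whole lists the median was 3.25-fold.

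The 6 room temperature members without a cold overlap were weak. The only one inside a gene lay in the kinase gene Lmtk2, 29249 bp from the gene's end, with 7 fragments (2.81 to 14.4). The 5 outside genes had 9 fragments between Gm32067 and Arrdc3, 7 between Gm15762 and Far2, and 6 each between Gm41533 and Gm41534, between Gm38557 and Gm41054 and between Vmn1r49 and Vmn1r50. The first of these lay 731922 bp from any gene end.

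Among the strongest members listed after cold only, Prr14 and Rcc1l had 52 fragments each (38.8 to 68.2). Prr14 encodes a protein that ties heterochromatin to the nuclear lamina, and its summit lay 724 bp before an inner start. Bicral, a subunit gene of a BAF chromatin remodelling complex, had 44 fragments (32.0 to 59.1) at 33650 bp from the nearest end. The start table held no start of Bicral. These 3, with the shared sites in Nr3c1, Prpsap1, Hnrnpul1, Aars2, Dedd, Mettl3 and Gm38469, were the 10 cold members inside genes with the highest −log10 q.

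Outside genes the strongest cold member, apart from the site on high background, lay between the immediate early gene Ier2 and Nacc1, with 39 fragments (27.7 to 53.3) at 2191 bp from Ier2 (chr8:84664769-84665244). A site between Gm40816 and B3gnt2 had 36 (25.2 to 49.8) at 44389 bp from the nearest gene end. The next were sites between Gm42081 and Rnf112 (29 fragments), Capn2 and Gm46248 (25), Gm30149 and Fam174b (24), A830005F24Rik and Ptpdc1 (24), Atp5g2 and Calcoco1 (22) and Arhgef12 and Tlcd5 (20). One between 4930467E23Rik and 9530057J20Rik had 19. None of these sites was in the room temperature list.

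Genes of other types, which the rule did not use, lay beside part of the members outside genes. After cold 10 of 40 had such a gene within 1 kb, a pseudogene in 5, a transcribed pseudogene in 3, a tRNA gene in 2 and a microRNA gene in 2, and some had several. Inside genes 2 of 157 did. The same count was not made for gene end entries or for positions outside genes at large, so these shares have no background. The site between Gm42081 and Rnf112 was 341 bp from the tRNA gene n-TWcca5. The site between Atp5g2 and Calcoco1 was 430 bp from Mir688, and one between Ppm1h and Mon2 (14 fragments, 7.65 to 23.5) was 413 bp from Mirlet7i, which encodes a let-7 microRNA.

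Most members had no other peak within 10 kb. After cold the share with one was larger inside genes than at gene ends within 10 kb, but not within 100 kb. Within 10 kb of 16 of 151 cold intervals inside genes (10.6%) lay another cold interval, and of 2 of 39 outside (5.13%), against 5.98% at gene ends. Within 100 kb the shares were 29.8% inside, 38.5% outside and 31.9% at gene ends. Any interval of the cold list counted as a neighbour, also one at a gene end. Genes with 2 separate gene-distant intervals after cold were Chd2 (39 and 42 fragments), Nsd1 (4 summits with 24, 22, 10 and 12) and Gnai2 (16 and 6). Chd2 encodes a chromatin remodeller, Nsd1 a histone H3 methyltransferase and Gnai2 an inhibitory G protein subunit.

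The densest group held 6 cold members, in 5 intervals, within 94.0 kb of chromosome 7. It ran from Chd2 (39 and 42 fragments) through Chaserr (13) and Gm30149 (28) to 2 summits of 1 interval outside genes (24 and 14). Chaserr is the lncRNA gene next to Chd2 known to hold Chd2 expression down. The last 2 summits lay 9574 bp and 9862 bp from Gm30149, the nearest gene. Of the 6 members only the site in Gm30149 was also listed at room temperature. On chromosome 8, 3 members lay in 65.1 kb, outside genes between Ier2 and Nacc1 (39), in Trmt1 (21) and in Nfix (26). On chromosome 15, 3 sites outside genes between AU022754 and Lncppara had 14, 16 and 16 fragments in 88.2 kb. A second stretch of chromosome 8, 766 kb long, held 5 members with 9 to 19 fragments, and 3 of its summits lay within 1 kb of pseudogenes.

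Some genes on lists of fat cell pathways and regulators hosted a gene-distant summit. As background, 144 of 21900 protein-coding genes did after cold (0.658%) and 18 at room temperature (0.0822%). After cold none of the 25 thermogenic genes, 25 insulin, growth and cAMP signalling genes, 12 clock genes and 15 polyamine genes did, with upper bounds of 13.7% to 26.5%. Lists of this length cannot show a shortfall from 0.658%.

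Of 25 adipocyte identity genes, Irs1, the insulin receptor substrate gene, did, with 13 fragments after cold (6.92 to 22.2) at 8311 bp from the gene's end. Of 30 nuclear receptor and cofactor genes it was Nr3c1 in both libraries, and of 20 YY1 and chromatin partner genes Yy1. Of 20 fat cell transcription factor genes of other families 2 did after cold (10%, 1.23 to 31.7). They were Nfib (22 fragments, 102244 bp from the nearest end) and Nfix (26 fragments). The Nfix summit lay 3343 bp from the nearest end, that of G430095P16Rik, and 25477 bp from the end of Nfix. Both genes are long, at 216579 bp and 96527 bp, against a median of 17.1 kb for protein-coding genes. The interval of this list lies above the 0.658% of all protein-coding genes. Gene length was not taken into account, and the lists were chosen with earlier results of these data known. None of the 5 marker lists of other cell types, with 8 genes each, had a member with such a summit in either library.

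The 1 kb limit fell within a continuous run of distances, with 8 entries in the last 100 bp on each side. Just inside were Mrpl45 (1011 bp, 24 fragments) and Gnb1 (1059 bp, 12), and just outside Top1 (997 bp, 12) and Tcf4 (958 bp, 20).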

How the data were processed

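The tools named in the submitters' processing notes are MACS2, BWA, SAMtools, DESeq2 and deepTools, and the build is mm10; no source used here gives versions, settings or a control. For each library the authors deposited a peak list with a score, a linear fold ratio, and −log10 p and −log10 q per peak. Peaks were therefore called per sample.

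The pileup was recovered as the whole number that satisfied both fold = (pileup + 1) / (background + 1) and the Poisson p, within 0.0002 of −log10 p, in all 165 and 1259 entries. For 1 cold entry a second number also fitted. Tested on simulated data, the inversion returned 165 of 165 and 1259 of 1259 planted pileups, and the other steps 200 of 200 planted gene ends and 200 of 200 planted motifs.

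Overlap means at least 1 bp. Coordinates are mm10, 1-based. Gene ends came from the RefSeq gene table of GRCm38.p6, which gives no strand or exons, so exons and introns were not told apart. Starts and their sequences came from 32851 RefSeq promoter windows of that assembly, covering 27025 genes and no chromosome 18. Reading sequence at the summits themselves needs a genome and was not done; windows at starts replaced it. Named were all shared members, the 10 highest −log10 q per list and place, genes with several intervals, room temperature members without overlap and up to 4 members per gene list. Of these, 1 site is not reported here. Members and lists were chosen with earlier results of these data known. Python 3.11.15, numpy 2.4.6, pandas 2.3.3 and scipy 1.17.1 were used.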

Additional observations from a re-analysis of the deposited data

How the results depend on the processing

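With 1 library per condition no library could be left out, and absolute depth is unknown. No paired analysis was possible because there is 1 library for each condition. The planned scans of sequence around the summits were not run, since they need a genome. The settings for distances to starts, host genes in the start table and promoter windows were chosen after seeing the data. Across the comparisons, 34 of the alternative values fell inside the interval or quartiles of the reported value, or within 1.5 times a reported count, and 16 fell outside. The number of gene-distant entries moved with the distance, at room temperature and after cold, to 40 and 312 beyond 500 bp, 17 and 107 beyond 3 kb and 9 and 55 beyond 10 kb, and to 14 and 106 when annotated starts counted as gene ends. The share of room temperature members also listed after cold was 94.4% when both lists were held to −log10 q of 3 or more. Beyond 3 kb from gene ends, 0% of room temperature and 4.76% of cold intervals had a neighbour within 10 kb. The share of cold members inside genes at a start was 36.4% within 200 bp, 48.3% within 500 bp and 71.1% with hosts in the start table only. AAGATGG was in 45.2% of windows that held the summit and in 14.3% for the weaker cold members. The cause was not tested beyond these settings themselves. Among gene list counts 25 were the same and 1 differed: it became 1 for fat cell transcription factors of other families after cold, with each summit counted for its nearest gene end.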
